A study of Mus musculus with 50 samples.

Results

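The cytosolic ribosomal proteins are the protein subunits of the ribosome that translates nuclear-encoded mRNAs. Their genes were taken by name, as symbols that begin with Rpl or Rps followed by a number and at most a short ending (a, l, l1 or x), together with Rplp0, Rplp1, Rplp2 and Rpsa. Of 81 such symbols in the table of 23880 genes, 80 reached 1 TPM, the unit of transcript abundance scaled by length and by library, in at least 8 mice and are described here, 49 of the large subunit and 31 of the small subunit. The remaining symbol, Rpl39l, did not reach that level.

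A ribosome carries a single copy of nearly every subunit protein, and cells keep the synthesis of these proteins in balance with each other and with the ribosomal RNA. The mRNAs are short and abundant, and many begin with a run of pyrimidines at the cap, the 5' terminal oligopyrimidine (TOP) tract, through which mTORC1 and the RNA-binding protein Larp1 control their translation. A few genes have a paralog with a narrower expression, of which Rpl3l, a relative of Rpl3 found in heart and skeletal muscle, is the best known in this tissue.

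RNA of the gastrocnemius, a calf muscle made mostly of fast fibres, was sequenced from 50 male wild type C57BL/6JRj mice, with 1 library from each mouse. The groups were 8 mice at each of 8, 18, 22 and 24 months and 9 mice at each of 26 and 28 months. The study followed the loss of muscle with age, so the groups differed in age and were untreated. All mice were singly caged and fed the AIN-93M diet, which the 8 and 18 months-old mice had for at least 2 months and the older mice from 18 to 19 months on, so age and time on the diet differ together between the 8 months-old group and those of 22 months and more. Animals with overt illness or tumors were not used, which leaves the survivors of each age as the model.

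Total counts ran from 13607229 to 21267375 per mouse. Summed TPM of 11 fast fibre genes ranged from 213718 to 244006 in the 8 months-old group and from 166502 to 258713 at 28 months. No library carried a second label that could mark a batch. In bulk muscle, fewer cells of a type and less RNA per cell cannot be told apart, and every level here is relative to the other mRNAs of the same library.

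The 80 mRNAs together held 34100 TPM in the lowest, 42625 in the median and 47956 in the highest of the 8 months-old mice. At 28 months the corresponding sums were 40746, 46507 and 54140 TPM. The ranges overlapped, and 4 of 9 old mice lay above all young mice. The mean sum stayed near its young value to 22 months and was higher from 24 months on. It was 41776 ± 4576 TPM (mean ± SD) at 8 months, 41594 ± 4500 TPM at 18 and 42522 ± 4254 TPM at 22 months. The corresponding values were 45115 ± 4827 TPM at 24, 46332 ± 3849 TPM at 26 and 47141 ± 4433 TPM at 28 months. As a share of all read counts the change was smaller, from 1.87 ± 0.273% (SD, n = 8) to 1.96 ± 0.167% (n = 9). Large subunit and small subunit mRNAs kept nearly the same proportion, with a ratio of summed TPM of 1.37 ± 0.0275 at 8 months and 1.39 ± 0.0123 at 28 months.

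Levels differed widely among the genes, which include the paralogs. Averaged over the 50 mice, Rplp0 was highest at 1381 TPM and Rpl7l1 lowest at 23.5 TPM, with a median over the 80 genes of 517 TPM. Between mice of one age, the median coefficient of variation of the 80 genes was 12.5% at 8 months and 11.3% at 28 months. Over all genes with at least 1 TPM in 8 mice it was 17.4% and 21.1%. Genes were not matched for level here, so whether ribosomal protein mRNAs vary less than others as abundant was not tested. The 80 mRNAs also shifted jointly between mice, and their sum ran from 34100 to 47956 TPM at 8 months. The 80 genes lay on 19 chromosomes, and 66 of them shared no 31-base stretch with another coding transcript. Rpl13a was the only gene with most of its 31-base stretches (52.4%) found elsewhere, so its value depends on how reads were divided.

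Between 28 and 8 months, 5 of the 80 genes rose and 1 fell at a false discovery rate (FDR) of 0.01 (edgeR quasi-likelihood test, Benjamini-Hochberg over 12586 genes, the source of each adjusted p value in the text unless another test is named). Among all tested genes 39.6% passed, 21.0% higher and 18.7% lower. Rpl3, Rps4x, Rpl4, Rpl10 and Rpl6 rose, and Rpl3l fell. The log2 fold change was above 0 for 65 of the 80 genes (50.8% of all genes), with a median of 0.08 beside 0.01 over all genes tested. An unadjusted p below 0.05 was found for 16 of the 80 and for 58.2% of all genes. At FDR 0.05, 14 of the 80 passed (53.1% of all genes). No gene of the 80 had all 9 old mice above or all below the 8 young mice in TPM (1.95% of all genes did upward and 1.90% downward). Counts of called genes moved with single mice, to 11 without replicate 3 of the 8 months-old mice and to 10 without replicate 3 of the 28 months-old mice. The lowest count was 4, without replicate 5 of the 8 months-old mice. Just outside the threshold were Rpl7l1 (log2 fold change −0.22, adjusted p = 0.0105, edgeR), Rpl12 (0.36, adjusted p = 0.0132, edgeR), Rpl21 (0.25, adjusted p = 0.0153, edgeR) and Rpl23 (0.29, adjusted p = 0.0166, edgeR).

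**Figure D1:**
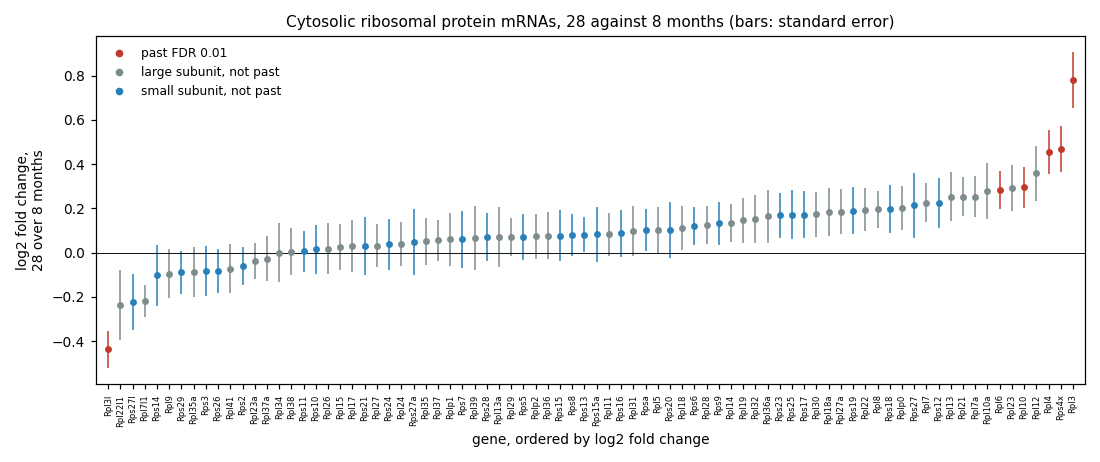
Log2 fold change (y axis) of each of the 80 cytosolic ribosomal protein mRNAs (x axis, ordered by value) in 9 mice of 28 months against 8 mice of 8 months, with bars for the standard error. Red points passed FDR 0.01, and grey and blue points are large and small subunit genes that did not. The values run from −0.44 for Rpl3l to 0.78 for Rpl3, and 65 of 80 are above 0.

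Rpl3 encodes a large subunit protein that reaches towards the peptidyl transferase centre. Its gene lies at chr15:80077791-80091868 on the minus strand of GRCm38. The 8 months-old mice had 74.4 TPM at the lowest, 100.4 at the median and 115 at the highest, and the 28 months-old mice 111, 179 and 240 TPM. All but 1 old mouse were above every young mouse, and the exception was replicate 3. The rise was 1.72-fold (log2 0.78 ± 0.13 SE, adjusted p = 3.5e-06, edgeR).

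Rps4x is an X-linked small subunit protein gene (chrX:102184941-102189394, minus strand). It had 520.4, 573 and 691 TPM (lowest, median, highest) at 8 months and 637, 806 and 1079 TPM at 28 months. Again 8 of 9 old mice lay above all young mice. The fold change was 1.39 (log2 0.47 ± 0.10 SE, adjusted p = 0.000224, edgeR).

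The product of Rpl4 (chr9:64173375-64178666, plus strand) lines part of the tunnel through which the nascent chain leaves the ribosome. Its mRNA went from 829, 909.6 and 1001 TPM (lowest, median, highest) at 8 months to 995, 1248 and 1604 TPM at 28 months. Only replicate 3 of the old mice lay inside the young range. The fold change was 1.37 (log2 0.45 ± 0.10 SE, adjusted p = 0.000224, edgeR).

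Rpl10 (chrX:74270812-74273135, plus strand) joins the large subunit at a late step of its maturation, and Rpl6 (chr5:121204481-121209241, plus strand) sits on the outer face of that subunit. For Rpl10 the young mice had 650.2, 775 and 832 TPM and the old mice 790.3, 1031 and 1153 TPM. For Rpl6 the young mice had 454, 489 and 568 TPM and the old mice 487, 607 and 745 TPM. In both cases the ranges overlapped and 7 of 9 old mice exceeded all young mice. The fold changes were close, 1.23 for Rpl10 (log2 0.29 ± 0.09 SE, adjusted p = 0.00757, edgeR) and 1.22 for Rpl6 (log2 0.28 ± 0.08 SE, adjusted p = 0.0047, edgeR). Both calls were the least firm of the 6. Leaving out 1 mouse at a time kept Rpl10 past the threshold in 9 of 17 fits and Rpl6 in 13 of 17, and the other 4 genes in all 17.

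Rpl3l is the striated muscle paralog of Rpl3 and lies at chr17:24727820-24736143 on the plus strand. The young mice had 872, 933 and 1100.3 TPM at the lowest, median and highest, and the old mice 584, 741 and 905 TPM. The old mice were lower, with 8 of 9 below all young mice and replicate 3 inside their range. Rpl3l fell to 0.739 of the young level (log2 −0.44 ± 0.08 SE, adjusted p = 3.93e-05, edgeR). It was the one ribosomal protein gene that fell past the threshold. The size of the fall depended on the processing, and over 13 alternative fits the log2 fold change ran from −0.48 to −0.19.

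The coding sequences of Rpl3 and Rpl3l have 1209 and 1221 bases and are identical at 74.3% of aligned bases, yet they share no 31-base stretch, so a full-length match of a read tells them apart. Their first 90 coding bases are printed to show how the differences are spread, with the 21 positions that differ in capitals. They were read from GENCODE M21 transcripts on GRCm38, with the coding exons of Rpl3 inside chr15:80077853-80083326 (minus strand) and those of Rpl3l inside chr17:24727884-24736053 (plus strand).
Rpl3: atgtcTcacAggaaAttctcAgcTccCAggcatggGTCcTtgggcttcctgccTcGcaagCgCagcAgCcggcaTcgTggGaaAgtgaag
Rpl3l: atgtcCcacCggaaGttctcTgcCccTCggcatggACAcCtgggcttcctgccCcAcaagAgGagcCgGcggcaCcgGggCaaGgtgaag

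Rpl3 made up 9.58 ± 1.26% (SD, n = 8) of the summed TPM of the pair at 8 months and 19.99 ± 6.32% (n = 9) at 28 months. Among the young mice the share ran from 7.37% to 11.2%, and among the old mice from 10.9% to 29.2%. The old mice were far more spread out, and 8 of 9 lay above the young range. At 26 months the share was 15.7 ± 2.96% (n = 9) with 9 of 9 mice above the young range, and at 24 months 12.3 ± 3.06% (n = 8) with 4 of 8. The gain of Rpl3 did not make up for the loss of Rpl3l, and the pair together had 1045 ± 68.2 TPM at 8 months and 920.5 ± 66.7 TPM at 28 months.

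**Figure D2:**
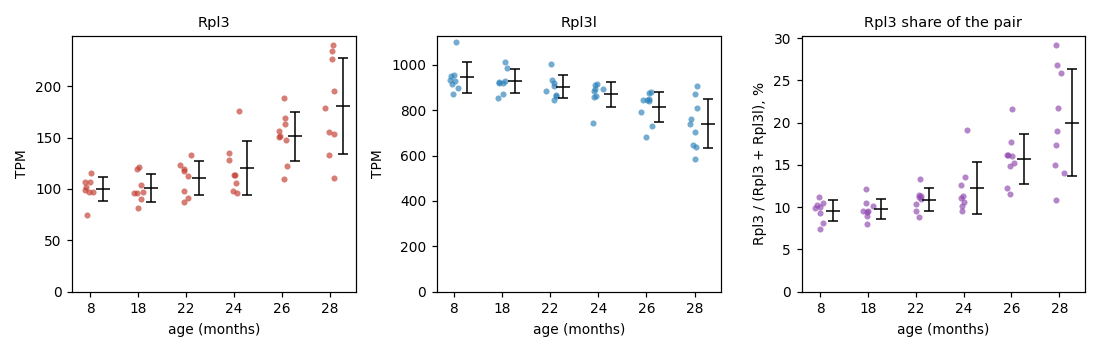
TPM of Rpl3 (left), TPM of Rpl3l (middle) and the share of Rpl3 in the summed TPM of both in percent (right) against age in months. Each point is a mouse and the bars are mean ± SD. Rpl3 is at 74.4 to 115 TPM at 8 months and 111 to 240 TPM at 28 months, and Rpl3l at 872 to 1100.3 and 584 to 905 TPM.

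Mice with more Rpl3 had less Rpl3l. Over the 50 mice of all ages Pearson's r of log2(TPM + 1) was −0.807 and Spearman's rho −0.67, both with permutation p = 1e-05, the smallest that 100000 permutations can give (adjusted p = 2e-05 over the 4 settings computed). With the mean of each age subtracted, r was −0.568 (permutation p = 0.00047, adjusted p = 0.000537) and rho −0.395 (permutation p = 0.011, adjusted p = 0.011). These values pool the ages, and Rpl3 was far more spread at 28 months (SD 46.4 TPM) than at 8 to 22 months (SD 11.9 to 16.4 TPM). The relation within each age alone was not tested. Without the 2 mice farthest from the median of Rpl3, replicates 2 and 5 of 28 months, r was −0.741 (permutation p = 1e-05, adjusted p = 2e-05). The relation was weaker on log2 CPM with TMM factors, where r was −0.619 (permutation p = 1e-05, adjusted p = 2e-05) and rho −0.49 (permutation p = 0.00029, adjusted p = 0.000387).

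The other paralog pairs also moved towards the general gene. The measure was the log2 ratio of TPM, paralog over gene, in each mouse, and its difference was tested with a two-sided exact permutation test over 24310 arrangements of the 17 mice, adjusted over 4 ratios. This ratio is taken within a library, so scaling between libraries does not enter it.

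The log2 ratio of Rpl3l to Rpl3 was 2.98, 3.16 and 3.63 (lowest, median, highest) at 8 months and 1.28, 2.08 and 3.02 at 28 months. It fell by 1.18 in the mean, with 8 of 9 old mice below all young mice (exact permutation p = 0.000165, adjusted p = 0.000219).

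Rpl22 is an RNA-binding large subunit protein and Rpl22l1 its close relative. Their log2 ratio had a lowest, median and highest value of −0.01, 0.17 and 0.37 in the young mice and −0.45, −0.24 and −0.02 in the old mice. The groups did not overlap, although the margin between the nearest mice was 0.01. The ratio fell by 0.41 (exact permutation p = 8.23e-05, the smallest this design can give, adjusted p = 0.000165).

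Rps27 and Rps27l encode variants of a zinc finger protein of the small subunit. Young mice had log2 ratios of −2.02, −1.87 and −1.82 and old mice −2.57, −2.32 and −2.08, with 9 of 9 old mice below all young mice. The mean fell by 0.43 (exact permutation p = 8.23e-05, adjusted p = 0.000165).

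For Rpl7l1, a rare relative of the large subunit protein Rpl7, the log2 ratios were −4.57, −4.41 and −4.08 in young mice and −5.14, −4.83 and −4.40 in old mice. Here 8 of 9 old mice lay below the young range, with replicate 3 inside it. The ratio fell by 0.43 (exact permutation p = 0.000576, adjusted p = 0.000576).

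Compared with 22 months, a comparison added after the 8 months result was seen, the ratios differed at 28 months by −0.97 for Rpl3l to Rpl3 (exact permutation, adjusted p = 0.00198), −0.31 for Rps27l to Rps27 (adjusted p = 0.00246) and −0.29 for Rpl7l1 to Rpl7 (adjusted p = 0.00592). The difference was −0.07 for Rpl22l1 to Rpl22 (exact permutation, adjusted p = 0.454). Its mean ratio was 0.15 at 8 months, −0.03 at 18 months, −0.18 at 22 months and −0.25 at 28 months, so most of the difference between 8 and 28 months was already present at 22 months.

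The paralogs are not all shorter than their gene. Transcript lengths, computed from the counts and TPM, were 847.6 nt for Rpl3l and 1338 nt for Rpl3, 556.9 nt for Rpl22l1 and 1150.0 nt for Rpl22, 531.2 nt for Rps27l and 398 nt for Rps27, and 2674 nt for Rpl7l1 and 1077 nt for Rpl7. The length of Rpl3l is less than its 1221 coding bases, so part of its TPM was assigned to a transcript that lacks part of the coding sequence, and the level of Rpl3l beside Rpl3 rests on that assignment. On read counts in place of TPM the differences in the 4 ratios were −1.20, −0.42, −0.43 and −0.44 in the same order (exact permutation, adjusted p from 0.000329 to 0.000494). With a length correction in the edgeR fit, the fold changes of paralog and gene still differed by −1.13, −0.28, −0.50 and −0.70 on the log2 scale.

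**Figure D3:**
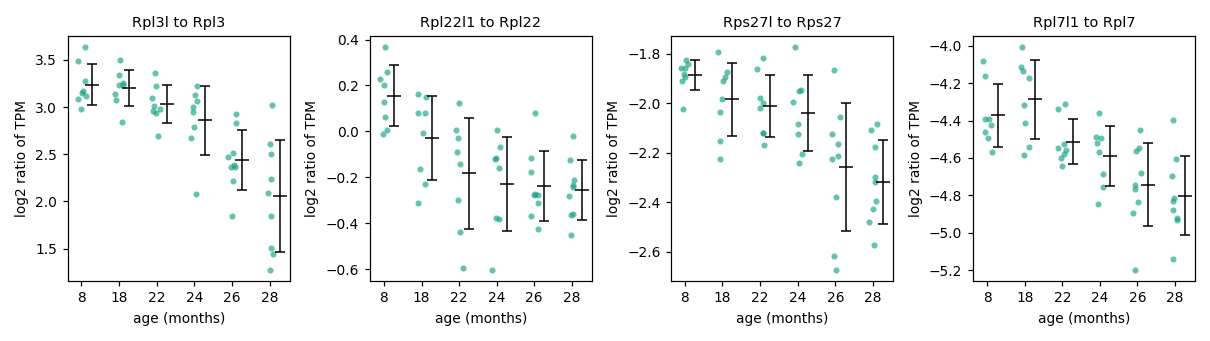
Log2 ratio of the TPM of paralog and gene (y axis) against age in months (x axis) for 4 pairs, with a point for each mouse and bars for mean ± SD. The 28 months-old mice lie lower in all 4 panels, by 1.18, 0.41, 0.43 and 0.43 in the mean, and all 9 are below the young range for Rpl22l1 to Rpl22 and for Rps27l to Rps27.

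Taken alone, none of the 3 minor pairs had a member past FDR 0.01. In the edgeR fit of 28 against 8 months the log2 fold change was 0.19 ± 0.10 SE for Rpl22 (adjusted p = 0.092) and −0.24 ± 0.16 for Rpl22l1 (adjusted p = 0.201). It was 0.21 ± 0.15 for Rps27 (edgeR adjusted p = 0.218) and −0.22 ± 0.13 for Rps27l (adjusted p = 0.133). For Rpl7 it was 0.22 ± 0.09 (edgeR adjusted p = 0.029). The values of Rpl22l1 and Rps27l turned positive, to as much as 0.11 and 0.13, under a length correction, while those of Rpl3l and Rpl7l1 stayed below 0 in each of 13 alternative fits.

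Rplp0, Rplp1 and Rplp2 form the stalk of the large subunit, to which elongation factors bind. None of the 3 passed FDR 0.01. Rplp0 had 1043, 1313 and 1381 TPM (lowest, median, highest) at 8 months and 1376, 1490.03 and 1817 TPM at 28 months. All but 1 old mouse exceeded the young range, but the test of the counts gave log2 0.20 ± 0.10 SE (adjusted p = 0.0829, edgeR). Rplp1 had medians of 1282 and 1329.6 TPM and Rplp2 of 399 and 433 TPM, with log2 fold changes of 0.06 ± 0.12 and 0.07 ± 0.10 SE. In both genes the ranges overlapped and 2 of 9 old mice lay above the young range.

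Rpsa, a small subunit protein also described as a laminin receptor, had medians of 818 TPM at 8 months and 874 TPM at 28 months (log2 0.10 ± 0.09 SE, adjusted p = 0.375, edgeR), and 5 of 9 old mice exceeded the young range. Rps24, among the most abundant small subunit mRNAs, had medians of 1206 and 1256 TPM (log2 0.04 ± 0.11 SE, adjusted p = 0.803, edgeR). Rpl37, one of the least abundant, had 139 and 155 TPM (log2 0.06 ± 0.09 SE, adjusted p = 0.632, edgeR). The mRNA of Rpl39, a small protein of the exit tunnel, had medians of 324 and 339.9 TPM (log2 0.07 ± 0.14 SE, adjusted p = 0.717, edgeR). In each of the last 3, at most 3 of 9 old mice lay above the young range.

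Rpl5 and Rpl11 join the 5S ribosomal RNA and, when ribosome assembly fails, bind Mdm2 and release p53, and Rpl23, Rpl26, Rps27 and Rps27l have also been tied to the Mdm2 and p53 system. None of these 6 genes passed FDR 0.01 at 28 months. Rpl5 had medians of 680.2 and 724 TPM (log2 0.10 ± 0.10 SE, adjusted p = 0.423, edgeR), and Rpl11 of 405 and 443 TPM (log2 0.08 ± 0.10 SE, adjusted p = 0.482, edgeR). Rpl26 had medians of 786 and 798 TPM (log2 0.02 ± 0.12 SE, adjusted p = 0.908, edgeR). The highest of the 6 fold changes was that of Rpl23, with medians of 369 and 468 TPM and 3 of 9 old mice above the young range.

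The differences appeared late. Each comparison with 8 months uses the same 8 young mice, so the values are set side by side and the comparisons are not independent. At 18 months 0 of 80 genes passed FDR 0.01 in edgeR (0.0715% of all genes did), with 0 at an unadjusted p below 0.05 (3.65% of all genes). Of the log2 fold changes 37 of 80 were above 0 (49.5% of all genes), with a median of −0.01. At 22 months 0 passed as well (0.0397% of all genes), with 1 gene, Rpl10, at an unadjusted p below 0.05 (9.01% of all genes). Here 40 of 80 were above 0 (47.3% of all genes), with a median of 0.00. DESeq2 and limma also called 0 at both ages.

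At 24 months 0 of 80 passed in edgeR, DESeq2 or limma (0.612% of all genes in edgeR). Rps4x, Rpl4 and Rpl10 had an unadjusted p below 0.05, as did 19.2% of all genes. Of the log2 fold changes 73 of 80 were above 0 (48.6% of all genes), with a median of 0.08 beside −0.01 over all genes. Rpl4 already stood apart in TPM, with 1018 to 1333 TPM in the 24 months-old mice and 8 of 8 above all young mice (0.345% of all genes were separated upward and 0.209% downward at 24 months). No other of the 80 genes had such a separation at any age.

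At 26 months 4 genes rose and 0 fell (18.4% of all genes passed, 9.84% higher and 8.54% lower). An unadjusted p below 0.05 was found for 15 (44.7% of all genes), and 11 passed FDR 0.05 (34.2% of all genes). The log2 fold changes were 0.59 for Rpl3 (adjusted p = 0.000585, edgeR), 0.38 for Rps4x (adjusted p = 0.00431, edgeR), 0.37 for Rpl4 (adjusted p = 0.00403, edgeR) and 0.33 for Rpl10 (adjusted p = 0.00618, edgeR). Rpl3l stood at −0.24 (adjusted p = 0.0262, edgeR). In all 73 of 80 values were above 0 (49.8% of all genes), with a median of 0.13 beside −0.00 over all genes.

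Between 28 and 22 months, a comparison that leaves out the young mice, 3 genes rose and 1 fell (27.7% of all genes passed, 16.2% higher and 11.5% lower). Rpl3 rose by log2 0.66 (adjusted p = 9.75e-05, edgeR), Rps4x by 0.33 (adjusted p = 0.00919, edgeR) and Rpl4 by 0.33 (adjusted p = 0.00743, edgeR), and Rpl3l fell by 0.33 (adjusted p = 0.00205, edgeR). Of the 80 values 66 were above 0 (50.8% of all genes), with a median of 0.10 beside 0.01. At FDR 0.05, 7 genes passed (42.6% of all genes). With only the 2 ages in the fit, 1 gene rose and 0 fell at FDR 0.01 (15% of all genes passed). The count was 2 when any of replicates 2, 4, 5 and 7 of 22 months or replicates 1, 2, 5, 8 and 9 of 28 months was left out, and 5 without replicate 3 of 28 months.

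Transcript length matters here because the fold changes of all genes were tied to it. Ribosomal protein transcripts had a median length of 737.4 nt, computed from the counts and TPM, against 2285 nt over all genes with at least 1 TPM in 8 mice. At 28 against 8 months, the 1092 other genes of up to 1000 nt had a median log2 fold change of −0.27 and 27.2% above 0, with 411 lower and 84 higher at FDR 0.01. The 67 ribosomal protein genes of up to 1000 nt had a median of 0.08 and 80.6% above 0. Without genes of mitochondrial proteins the other short genes numbered 987, with a median of −0.24.

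Within the ribosomal proteins the longer genes had the higher values. In 4 length classes of 20 genes each, with bounds at 386.6, 600.8, 737.4, 902.2 and 2674 nt, the medians were 0.02, 0.07, 0.12 and 0.18. The other genes of the same 4 length ranges had medians of −0.30, −0.28, −0.28 and −0.06. As a description over genes, which share libraries and are not independent, Spearman's rho of length and log2 fold change was 0.419 over the 80 genes and 0.273 over 12506 other genes. Of the 5 genes that rose, 4 were in the longest class, and Rpl10 at 809.9 nt was in the one before it.

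**Figure D4:**
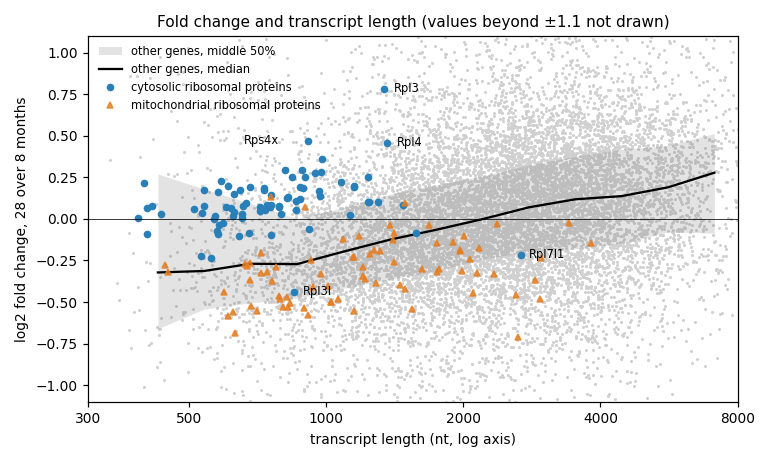
Log2 fold change at 28 against 8 months (y axis) against transcript length in nt computed from counts and TPM (x axis, log scale) for cytosolic ribosomal proteins (blue), mitochondrial ribosomal proteins (orange) and all other genes (grey, with their running median and the middle 50% of values). Among genes of up to 1000 nt the medians are 0.08, −0.39 and −0.27, and the last includes the mitochondrial ribosomal proteins.

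The same contrast was seen in single mice. For each mouse the median log2 CPM, the read count scaled by library and not by length, over a set of genes was taken relative to the mean of the 8 months-old mice. For the ribosomal proteins it was −0.00 ± 0.23 (SD, n = 8) at 8 months and 0.11 ± 0.13 (n = 9) at 28 months, and the old range of −0.08 to 0.29 lay within the young range of −0.40 to 0.34. For the other short genes it was 0.00 ± 0.16 and −0.23 ± 0.10, so at both ages the ribosomal proteins had the larger spread between mice. The difference of both medians within a mouse was −0.01 ± 0.08 at 8 months, 0.06 ± 0.11 at 22 months, 0.17 ± 0.16 at 24 months, 0.27 ± 0.15 at 26 months and 0.33 ± 0.17 at 28 months, with 6 of 8, 9 of 9 and 8 of 9 mice above the young range at the last 3 ages.

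**Figure D5:**
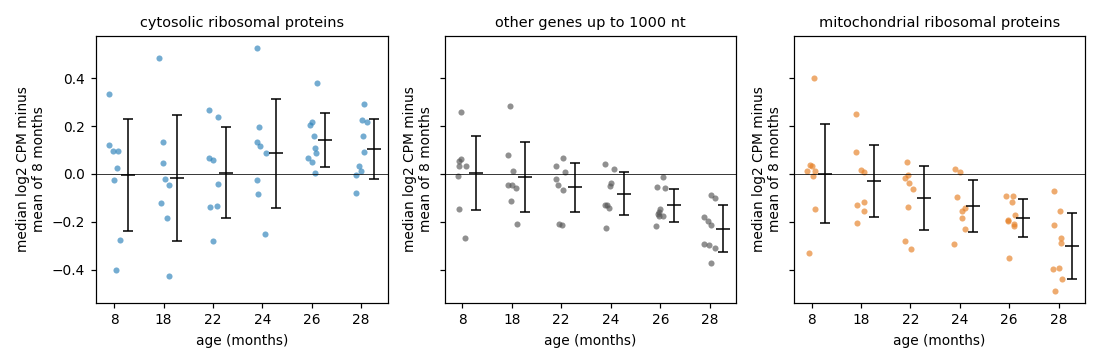
Median log2 CPM of the cytosolic ribosomal proteins (left), of other genes of up to 1000 nt (middle) and of mitochondrial ribosomal proteins (right) in each mouse, minus the mean of the 8 months-old mice (y axis), against age in months (x axis). Points are mice and bars mean ± SD. At 28 months the means are 0.11, −0.23 and −0.30, and the middle set includes the mitochondrial ribosomal proteins of that length.

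How many ribosomal protein genes are called therefore depended on whether length was corrected. A first offset took off the smooth trend over annotated length, fitted on the genes outside the 80. Fold changes then stand relative to other genes of like length. With this offset 34 rose and 2 fell between 28 and 8 months (20.9% of all genes higher), with a median of 0.23. With the length computed from counts and TPM, a setting chosen after the data were seen, 69 rose and 2 fell (21.7% of all genes higher), with a median of 0.39. TPM in place of counts, tested with limma on log2(TPM + 1), gave 21 higher and 1 lower (22.2% of all genes higher), with a median of 0.16 beside 0.06 over all genes. The 26 against 8 months comparison gave 14, 53 and 9 higher genes in the same order (10.1%, 10.9% and 6.44% of all genes), and 28 against 22 months gave 19, 56 and 9 (15.2%, 15.6% and 13.5% of all genes). When genes of mitochondrial proteins were left out of the trend over length, the numbers of higher genes were 65, 49 and 54 in the 3 comparisons (21.3%, 10.7% and 15.5% of all genes). An offset for GC content gave 8 called genes at 28 against 8 months (40.0% of all genes) and 2 at 28 against 22 months (26.9%). Whether the trend over length is a property of the libraries or of the muscle was not tested, and the 2 cannot be told apart by length alone. At 28 against 8 months, Rpl3, Rps4x, Rpl4 and Rpl3l passed FDR 0.01 in the same direction in each of 13 alternative fits. This did not hold for the other 2 comparisons. With only the 2 ages in the fit, 2 of the 80 genes passed at 26 against 8 months and 1 at 28 against 22 months.

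The mitochondria have ribosomes of their own, whose proteins are also encoded in the nucleus. Of 77 mitochondrial ribosomal protein genes 0 rose and 45 fell between 28 and 8 months, with a median log2 fold change of −0.32, where 18.7% of all genes passed as lower. These transcripts are short as well, and in the class of up to 1000 nt 20 of 30 fell (66.7%). Of all genes of that length outside the cytosolic ribosomal proteins, these 30 included, 37.6% fell. Without genes of mitochondrial proteins it was 33.9%. Mrps16 had 24.9 TPM at the median of the young mice and 15.7 TPM at that of the old mice (log2 −0.71 ± 0.11 SE, adjusted p = 1.57e-06, edgeR), and Mrps36 had 108 and 73.9 TPM (log2 −0.69 ± 0.11 SE, adjusted p = 1.5e-06, edgeR). Their summed level was 5594 ± 582 TPM (SD, n = 8) at 8 months and 4632 ± 415 TPM (n = 9) at 28 months, with 7 of 9 old mice below all young mice.

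Many genes that build the ribosome rose late in life. Of 95 tested genes of ribosome biogenesis 59 rose and 2 fell at 28 months, with a median log2 fold change of 0.37, and 34 rose and 1 fell at 26 months. Over all genes 21.0% passed as higher at 28 months and 9.84% at 26 months. Fold changes were tied to transcript length, and a comparison with genes of like length was not made for this list or those below. Urb1, which acts in early steps of the large subunit, went from a median of 3.04 to 5.45 TPM (log2 0.96 ± 0.18 SE, adjusted p = 1.81e-05, edgeR). Taf1d, a factor of RNA polymerase I transcription, went from 11.99 to 23.4 TPM (log2 0.98 ± 0.19 SE, adjusted p = 6.25e-05, edgeR).

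Translation needs initiation and elongation factors beside the ribosome. Of 39 initiation factor genes 20 rose and 1, Eif4e, fell (median 0.21), with the scaffold gene Eif4g3 at 101 and 202 TPM in the median young and old mouse (log2 0.89 ± 0.14 SE, adjusted p = 1.73e-06, edgeR) and Eif3a at 57.6 and 107 TPM (log2 0.80 ± 0.14 SE, adjusted p = 9.51e-06, edgeR). Of 13 genes listed as elongation factors, not all of which act in elongation, 4 rose and 1, Eef1e1, fell (median 0.07). The split was not far from the 21.0% higher and 18.7% lower over all genes. Of those that rose, Eef2 and Eef1a1 act in elongation, while Gspt1 and Etf1 encode termination factors. Eef2, which drives translocation, and Eef1a1, which delivers aminoacyl-tRNA, are themselves TOP mRNAs. Eef2 had medians of 1207 and 1778 TPM (log2 0.48 ± 0.09 SE, adjusted p = 2.86e-05, edgeR) and Eef1a1 of 909.9 and 1273 TPM (log2 0.41 ± 0.11 SE, adjusted p = 0.00181, edgeR).

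The starts of the transcripts show which mRNAs carry the TOP tract in the reference. RefSeq start windows on GRCm38.p6 were found for 60 of the 80 genes. A TOP-like start, a C at the first transcribed base followed by 4 bases that are each C or T, searched on the strand of the transcript at that position only, was present in 13 of the 60 (21.7%), 7 of 37 large subunit and 6 of 23 small subunit genes. It was present in 3.01% of all 27025 symbols of the table. A run of at least 8 C or T anywhere in the 30 bases around the start was present in 45% of the ribosomal protein genes and 13.9% of all symbols. An annotated start can be some bases away from the one used, so a window without the letters says only that they are not at the annotated base.

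The windows shown are 4 genes with such a start and the 4 paralogs, with the 15 bases before the annotated start in lower case and the first 15 transcribed bases in capitals. Rps27 lies at chr3:90213634-90213663 (minus strand), Rps6 at chr4:86857353-86857382 (minus), Rpl35 at chr2:39005117-39005146 (minus), Rplp2 at chr7:141447636-141447665 (plus), Rpl3l at chr17:24727811-24727840 (plus), Rps27l at chr9:66946071-66946100 (plus), Rpl22l1 at chr3:28805493-28805522 (plus) and Rpl7l1 at chr17:46782642-46782671 (minus).
Rps27: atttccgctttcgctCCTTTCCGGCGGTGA
Rps6: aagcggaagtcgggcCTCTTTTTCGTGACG
Rpl35: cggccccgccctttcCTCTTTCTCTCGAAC
Rplp2: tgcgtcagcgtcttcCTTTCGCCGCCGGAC
Rpl3l: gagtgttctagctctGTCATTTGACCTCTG
Rps27l: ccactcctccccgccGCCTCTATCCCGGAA
Rpl22l1: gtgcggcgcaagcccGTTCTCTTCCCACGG
Rpl7l1: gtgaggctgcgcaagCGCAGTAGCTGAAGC
None of the 4 paralog windows had the TOP-like start, and nor did the annotated windows of Rpl4, Rps4x, Rpl10 and Rpl6. Of the genes they are paired with, Rps27 had it and Rpl22 had not, and Rpl3 and Rpl7 were not among the 60 genes with a window. Since 13 of the 60 genes had such a start, its absence did not set the paralogs apart.

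Markers of other cells moved with age as well, beside 21.0% of all genes higher and 18.7% lower. Of 9 macrophage genes 6 rose between 8 and 28 months, with summed levels of 192 to 329 TPM in the young and 301 to 807 TPM in the old mice, and none was at 0. The largest changes were in Cd163 (log2 1.29 ± 0.22 SE, adjusted p = 9.75e-06, edgeR) and Mrc1 (log2 0.84 ± 0.18 SE, adjusted p = 0.000161, edgeR), receptors of tissue macrophages. Of 6 fibroblast genes 4 fell (725 to 1072 TPM and 597 to 815 TPM), and of 5 adipocyte genes 4 fell (502 to 810.5 TPM and 357 to 749 TPM), with Lep, the gene of leptin, at 0 TPM in the lowest old mouse. The log2 fold changes were −2.29 and −2.08 for the collagen genes Col3a1 and Col1a1, and −3.98 and −1.77 for Lep and the lipid droplet gene Plin1 (adjusted p from 1.32e-07 to 3.6e-05, edgeR). Of 5 genes of regenerating or denervated fibres 4 rose (73.7 to 165 TPM and 136 to 223 TPM), with Runx1 at log2 2.33 ± 0.27 SE (adjusted p = 1.74e-08, edgeR) and Myog at 1.32 ± 0.34 SE (adjusted p = 0.0013, edgeR). Macrophages and other mononuclear cells also carry ribosomes. The part of these cells in the levels of the ribosomal protein mRNAs was not tested.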

How the data were processed

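Per the methods, the authors trimmed paired-end, strand-specific reads of poly(A) RNA with cutadapt (version 1.9.1) and assigned them with kallisto (version 0.43.1) to protein-coding transcripts of Ensembl release 92 (GRCm38, support levels as chosen by the authors). Reads that fit several transcripts were divided evenly. The deposited counts are whole numbers summed by the authors over the transcripts of a gene, and the deposited TPM values were summed likewise, which divides by transcript length. Both tables hold 50 mice, mapped to age and replicate by the labels. Total counts were 13607229 to 21267375 per mouse, which limits the precision of low genes. No per-sample column fell outside the 50 mice.

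The 12586 genes that reached 1 CPM in 8 or more mice were fitted in one model of the 6 ages by the quasi-likelihood method of edgeR 4.0.16 (R 4.3.3), scaled by TMM and called at a Benjamini-Hochberg FDR of 0.01, for 28, 26, 24, 22 and 18 against 8 months and 28 against 22 months. Levels are TPM. Transcript length was taken from the annotation (GENCODE M21) and, separately, from the ratio of counts to TPM. Alternatives were DESeq2 1.42.0, limma 3.58.1 on log2(TPM + 1) and log2(TPM + 0.1), other scaling factors, no filter, only the 2 ages compared, a replicate block, offsets for length and GC content, and each mouse left out in turn. Ratios were tested with exact permutation tests (scipy 1.17.1). On simulated data with 200 of 12586 genes changed, 90% of 2-fold and 30% of 1.3-fold changes were called between 28 and 8 months (20% of 1.3-fold changes among the ribosomal protein genes), and 2 unchanged genes.

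The members, the lists and the tests were chosen with earlier results of these data known. The text names, by rule, the members with a paralog that is also a member, or whose paralog was considered (Rpl39 and Rpl10), Rplp0, Rplp1, Rplp2, Rpsa, up to 5 members that rose and 5 that fell most past FDR 0.01, the 3 highest and 3 lowest by TPM, 6 members of the p53 checkpoint, and of each other list the 2 largest changes past FDR 0.01. Members just outside the threshold, genes with an unadjusted p below 0.05, Eif4e, Eef1e1, Gspt1, Etf1 and Mtor were named after their values were seen.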

Additional observations from a re-analysis of the deposited data

Results flagged for a closer look

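Among 180 groups of 8 or 9 mice (23 genes, the summed TPM and the share of counts of the 80 genes, the share of Rpl3 and the 4 ratios, at each of 6 ages), 14 had a mouse whose distance from its nearest neighbour was large beside the range of the group by Dixon's criterion. That is 7.78% of the groups, where chance flags about 1 in 20, and groups of genes measured in the same mice are not independent. Replicate 3 of the 8 months-old mice was the highest for Rpl3l (1100.3 TPM, next 957), Rpl7 (661 TPM, next 549) and Rpl23 (555 TPM, next 388), and replicate 2 of that age the lowest for Rpl3 (74.4 TPM, next 97.1). Replicate 4 of that age had the lowest log2 ratio of Rps27l to Rps27 (−2.02, next −1.91). At 24 months replicate 8 was the highest for Rpl22 (302 TPM, next 251), Rpl39 (521 TPM, next 366), Rps24 (1552 TPM, next 1299) and Rpl26 (1028 TPM, next 854). Replicate 1 of 24 months was the lowest for Rpl3l (744 TPM, next 859) and had the highest share of Rpl3 in the pair (19.1%, next 13.5%). At 26 months replicate 1 was the highest for Rpsa (1039 TPM, next 887) and Rpl4 (1651 TPM, next 1288), and at 28 months replicate 8 was the highest for Rpl39 (435 TPM, next 362).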

How the results depend on the processing

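The number of ribosomal protein genes past the threshold, 6 at 28 against 8 months, was 14 at FDR 0.05, 22 with limma on either pseudocount, 36 with the offset for annotated length, 71 with the length from counts and TPM and 67 with mitochondrial genes left out of that trend, and 4 to 11 with 1 mouse left out. With only the 2 ages in the fit it was 4. At 26 against 8 months (4 genes) it was 11 at FDR 0.05, 9 with limma on either pseudocount, 2 with only the 2 ages in the fit, and 14, 53 and 49 with the 3 length offsets. At 28 against 22 months (4 genes) it was 7 at FDR 0.05, 2 with upper-quartile factors, without the filter or with the GC offset, 10 with limma on either pseudocount, 1 with only the 2 ages, 20, 56 and 54 with the length offsets, and 2 to 5 with 1 mouse left out. Only the 2 ages in the fit means fewer mice for the spread; the cause of the other shifts was not tested. The median log2 fold change at 28 against 8 months (0.08) was 0.39 and 0.35 with the last 2 length offsets, and 0.03 to 0.14 with 1 mouse left out. Upper-quartile factors shifted the median of all genes by −0.05 and left 3 higher and 2 lower calls. The rise of 5364 TPM in the summed level was 4268 to 6247 TPM and the difference of −1.18 in the log2 ratio of Rpl3l to Rpl3 was −1.30 to −1.08 with 1 mouse left out. With the replicate number as a block, 5, 4 and 3 genes passed in the 3 comparisons. The numbers share no stated litter or day, and mice with the same number did not deviate together (median correlation 0.05, and 8 of 50 mice matched their own number best). Of 690 alternative fits for the 23 named genes, 607 kept the direction and the side of the threshold, 51 newly passed it, 19 no longer did, and 13 changed sign without passing it. The sign changes were Rpl22l1 (0.109 and 0.0632) and Rps27l (0.128 and 0.0806) with the last 2 length offsets, Rps24 and Rpl26 with upper-quartile factors (−0.0161 and −0.0344), Rps24 with the GC offset (−0.0007), and single fits with 1 mouse left out, in which Rpl39 ranged from −0.0067 to 0.132, Rps24 from −0.0162 to 0.0955 and Rpl26 from −0.0354 to 0.0701.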

Other observations

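Other genes that act on ribosomal protein mRNAs were also compared between 28 and 8 months, without a correction for transcript length. Of 23 genes that control TOP mRNAs through mTORC1 and Larp1, 9 rose and 1 fell, with a median log2 fold change of 0.14, where 21.0% of all genes passed as higher and 18.7% as lower. Mtor, the kinase of the complex, was among those that rose, and the largest changes were in Sesn1 and Ddit4, which act against mTORC1. Sesn1, an inhibitor of mTORC1 in amino acid sensing, had 10.2 to 17.4 TPM in the young and 15.2 to 349 TPM in the old mice (log2 2.96 ± 0.43 SE, adjusted p = 6.65e-07, edgeR), so the ranges overlapped slightly and the old mice were widely spread. Ddit4, which is induced by stress, had 17.9 to 150.2 TPM and 19.96 to 618 TPM (log2 2.21 ± 0.55 SE, adjusted p = 0.000778, edgeR), with wide overlap.

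Of 15 genes tied to the transcription of ribosomal protein genes 7 rose and 1 fell (median 0.30). This count and those of the next 2 lists stand beside 21.0% higher and 18.7% lower over all genes. Myc, an activator of ribosome synthesis, had medians of 5.29 and 14.95 TPM (log2 1.65 ± 0.26 SE, adjusted p = 1.86e-06, edgeR). Mga, a repressor that binds the Myc partner Max, had medians of 24.0 and 42.9 TPM (log2 0.87 ± 0.20 SE, adjusted p = 0.000314, edgeR). Of 20 genes of ribosome rescue and hibernation 9 rose and 1 fell (median 0.19), with Nemf, which marks stalled chains for removal, at 24.2 and 31.6 TPM (log2 0.53 ± 0.11 SE, adjusted p = 6.69e-05, edgeR) and Zcchc24 at 41.6 and 90.7 TPM (log2 1.20 ± 0.17 SE, adjusted p = 6.23e-07, edgeR). Of 12 chaperones and importins of ribosomal proteins 5 rose and 3 fell (median 0.09), and the importin gene Ipo5 had medians of 82.6 and 119.6 TPM (log2 0.49 ± 0.07 SE, adjusted p = 5.63e-07, edgeR) and Ipo7 of 87.0 and 112 TPM (log2 0.42 ± 0.11 SE, adjusted p = 0.000894, edgeR).

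The remaining cell type lists are short, and their counts stand beside the same 21.0% higher and 18.7% lower over all genes. Of 11 fast fibre genes 2 rose and 2 fell, with the calcium buffer gene Pvalb at log2 −0.74 and the myosin gene Myh1 at 0.67, while 0 of 7 slow fibre genes passed in edgeR. Of 4 satellite cell genes Vcam1 rose (log2 0.64) and Chodl fell (log2 −0.67). Of 9 genes listed for lymphocytes only 2 were high enough to be tested, and both rose, Jchain by log2 2.71 and Ptprc by 1.22. Jchain was low, with a median of 0.53 TPM at 8 months, and Ptprc is carried by other leukocytes as well. Of 6 endothelial genes Tek fell (log2 −0.40), of 5 Schwann cell genes S100b fell (log2 −1.07), and of 5 erythroid genes Alas2 rose (log2 1.23).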
